A study of Macaca fascicularis with 6 samples.

Results

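The genes of urea, water and osmolyte transport described here, in cells of cynomolgus cartilage grafts, were 8 by name: SLC14A1, AQP1, AQP3, SLC6A6, SLC5A3, AKR1B1, NFAT5 and CDO1. They were chosen by name as genes of osmotic adaptation in chondrocytes, and SLC14A1 was picked because it had the largest rise after transplantation in these data. The deposited matrices list 6 of the 8 among 14020 gene symbols, and all 6 are in both matrices. AQP1 and SLC5A3 are not among the listed symbols and were not analysed here.

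Chondrocytes live in a matrix of charged proteoglycans that draws in cations and water, so the fluid around them has a higher osmolarity than plasma and changes with load. Cells in such surroundings take up or make small organic osmolytes such as taurine, inositol and sorbitol, and move water and urea through membrane channels and transporters. The transcription factor NFAT5 is the best known regulator of this response, and the genes for the taurine transporter, the inositol transporter and aldose reductase are among its classical targets. SLC14A1 encodes the urea transporter UT-B, known from erythrocytes and the kidney and also described in cartilage. AQP3 encodes a channel for water and glycerol. SLC6A6 encodes the taurine transporter TauT, AKR1B1 encodes aldose reductase, which makes sorbitol from glucose, and CDO1 encodes cysteine dioxygenase, which starts the path from cysteine to taurine.

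Single cells of 5 kinds were read by TAS-Seq, a whole-transcriptome method on BD Rhapsody beads. The cyiPSCs are cynomolgus monkey iPS cells of 1 line that carries an EGFP reporter, and pre-transplant cyiPS-Cart is the cartilage organoid differentiated from them in culture. Post-transplant cyiPS-Cart is the same kind of organoid after 4 months in a chondral defect of the knee of allogeneic monkeys aged 3 to 4 years. The other 2 kinds are cyAC, intact articular cartilage of the knee, and cyFT, the fibrous tissue that filled defects left empty. Both came from wild-type monkeys of the same age range, and their library is given the same time of 4 months. The label wild type on the post-transplant sample cannot describe the graft cells, which had 5504 counts per 1000000 reads (CPM) of the EGFP transcript, against 2354 in the pre-transplant cells and 0 in cyAC and cyFT. The methods combine 2 transplanted sites of each monkey for sequencing, and how many monkeys each sequenced sample holds is not given in the sources used here.

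Each condition was 1 sample, so no difference between conditions has a replicate check and no test was made. The first matrix holds 2500 cyiPSCs and 3527 pre-transplant cells, and the second holds 320 cells each of cyAC, cyFT and cyiPS-Cart before and after transplantation. Of the 320 pre-transplant cells, 300 also stand in the first matrix, with the same counts for every gene that both matrices list; no other pair of samples shared a cell. The cyiPSCs and the pre-transplant cells were read in 1 library, cyAC and cyFT in another, and the post-transplant cells in a library of their own. Between libraries, the condition and the library cannot be told apart. Median reads per cell ran from 27500 in cyFT to 143075 in cyiPSCs. Chondrocyte markers, 10 of 11 listed, summed to 39255 CPM in cyFT, 54440 in pre-transplant cells, 78434 in cyAC and 86122 in post-transplant cells. Fibroblast markers, 8 of 8 listed and led by COL3A1 in post-transplant cells (34538 CPM), summed to 37548 CPM in pre-transplant cells, 85853 in post-transplant cells, 20083 in cyAC and 59819 in cyFT. Their sum was higher after transplantation along with SLC14A1, AQP3, CDO1 and SLC6A6, and its part in those results was not tested. The rise was not in every marker. COL1A2 was at 3861 CPM before and 25851 after, while POSTN (2248 and 355), PDGFRA (13.0 and 6.23) and THY1 (95.5 and 94.1) were not higher. COL1A1 had reads in 24.1% of pre-transplant and 16.9% of post-transplant cells. In cyFT, COL1A1 had reads in 63.4% of cells and COL2A1 in 36.6%.

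A level in CPM is the sum of a gene's reads over the cells of a sample per 1000000 reads of that sample. Their ranges are exact Poisson 95% intervals, shares of cells have exact Clopper-Pearson intervals, and ratios have exact conditional intervals. All of these cover counting error only, and the reads were not collapsed to molecules, so the true spread is wider.

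The urea transporter gene SLC14A1 had almost no reads before transplantation and had reads in 53.1% of the cells after it. Its level was 1.60 CPM in cyiPSCs, 0.376 in pre-transplant cells (8 reads), 125 in post-transplant cells (3730 reads), 32.8 in cyAC and 31.4 in cyFT. The post-transplant level was the highest, cyAC and cyFT had overlapping intervals (29.6 to 36.2 and 28.2 to 34.9), and both cultured samples lay far below the other 3. In the 3527 pre-transplant cells of the first matrix it was 0.711 CPM.

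**Figure D1:**
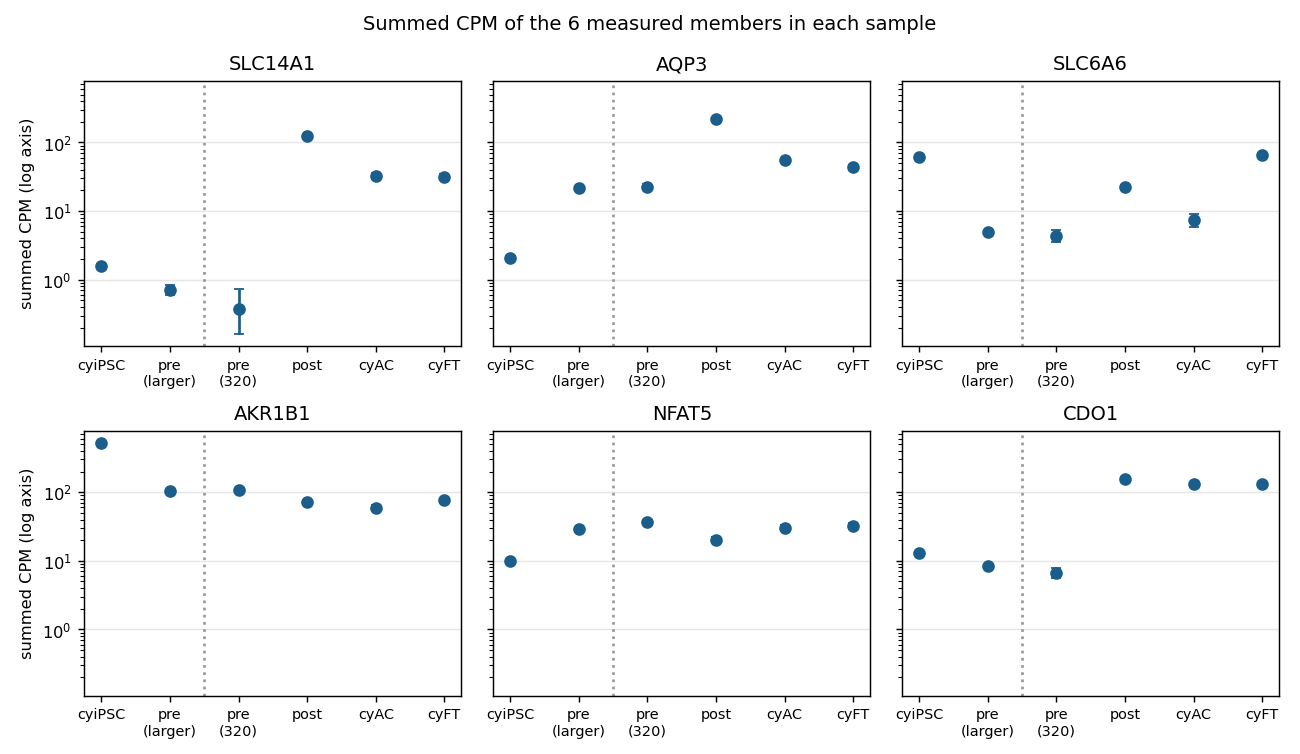
Summed CPM (log axis) of the 6 measured genes in each sample, with exact Poisson 95% intervals, often smaller than the point. The dotted line separates the first matrix (cyiPSC and 3527 pre-transplant cells) from the second (320 cells each). SLC14A1, AQP3 and CDO1 were highest in post-transplant cells, AKR1B1 in cyiPSCs, and NFAT5 stayed between 9.98 and 37.1 CPM.

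Post-transplant cells had 332.5 times the pre-transplant level of SLC14A1 (169 to 771), a log2 ratio of 6.52 on CPM plus 1. This was the largest ratio among the 3420 genes that had at least 50 CPM and reads in at least 25% of cells in either sample; the next was ADM, the gene for adrenomedullin, at 5.99. SLC14A1 was chosen for this ratio, so the value is a description. Against cyAC, post-transplant cells had 3.81 times the level (3.43 to 4.24), a log2 ratio of 1.90; the post-transplant value in it is the one the choice used, so this too is a description.

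Cells with a read of SLC14A1 held a median of 160 CPM each in post-transplant cyiPS-Cart, 69.8 in cyAC and 68.6 in cyFT. The shares of such cells were 1.88% in pre-transplant cells (0.691 to 4.04), 53.1% in post-transplant cells (47.5 to 58.7), 21.6% in cyAC (17.2 to 26.5) and 15% in cyFT (11.3 to 19.4). Because the samples differed in depth, every cell of the second matrix was also thinned at random to 12191 reads, which left out 1 pre-transplant cell, 12 cyAC cells and 32 cyFT cells. At that depth the shares were 0 of 319 pre-transplant cells, 39.1% of post-transplant cells, 14.3% of cyAC cells and 11.1% of cyFT cells. By the limit of 3 counts used here for every share of 0, in place of the exact interval, 0 of 319 cells allows up to 0.940% of cells with a read at this depth. It does not limit the share of cells that express the gene, and 1.88% had a read at full depth. The cyiPSC share of 14.3% came from deep cells with few reads, a median of 7.78 CPM in the cells that had any, and was 4.10% when cells were thinned to 30967 reads.

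**Figure D2:**
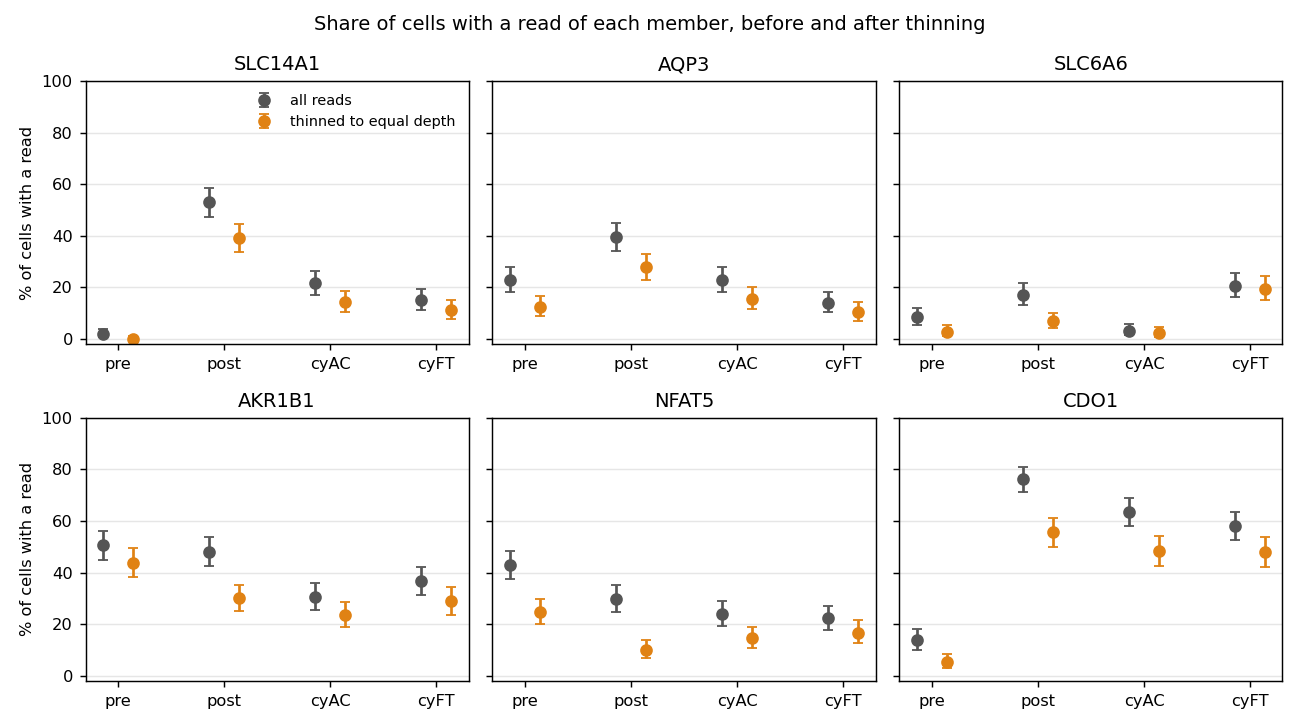
Percent of cells with at least 1 read of each gene in the 4 samples of the second matrix, with exact 95% intervals. Grey points use all reads and orange points use cells thinned to 12191 reads. For SLC14A1 and CDO1 the post-transplant share was the highest at both depths, and for SLC6A6 the thinned share was highest in cyFT, at 19.4%.

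SLC14A1 had overlapping levels and overlapping shares of cells in cyAC and cyFT, and within cyFT it differed between cells of different collagen content. Cells of the second matrix were classed by reads of COL2A1, the main collagen of hyaline cartilage, and COL1A1, the main collagen of fibrous tissue. In cyFT, the 84 cells with COL2A1 alone made up 26.3% of the cells and held 309 of the 348 SLC14A1 reads. Their level was 69.0 CPM (61.5 to 77.1), against 1.16 CPM (0.375 to 2.70) in the 170 cells with COL1A1 alone, a 59.7-fold difference (25.3 to 185). The gene had reads in 46.4% of the cells with COL2A1 alone and in 2.94% of the cells with COL1A1 alone. The median depths of these classes were 47802 and 21830 reads, and after thinning the shares were 31.0% and 2.08%. The 33 cyFT cells with neither collagen had no read of SLC14A1, which by the limit of 3 counts allows up to 9.09% of cells with a read.

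Among cells with COL2A1 alone, SLC14A1 was at 0.330 CPM in 242 pre-transplant cells, 132 in 265 post-transplant cells, 37.1 in 276 cyAC cells and 69.0 in the 84 cyFT cells. Within this class cyFT stood above cyAC by 1.86-fold (1.59 to 2.16), where the whole samples overlapped, and post-transplant cells stood above cyFT by 1.92-fold (1.70 to 2.16). The collagen classes rest on the counts after the authors' background correction, and the lowest count left above 0 was 147 to 354 reads for COL2A1 and 76 to 497 for COL1A1. Cells with fewer reads of either collagen therefore count as lacking it.

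**Figure D3:**
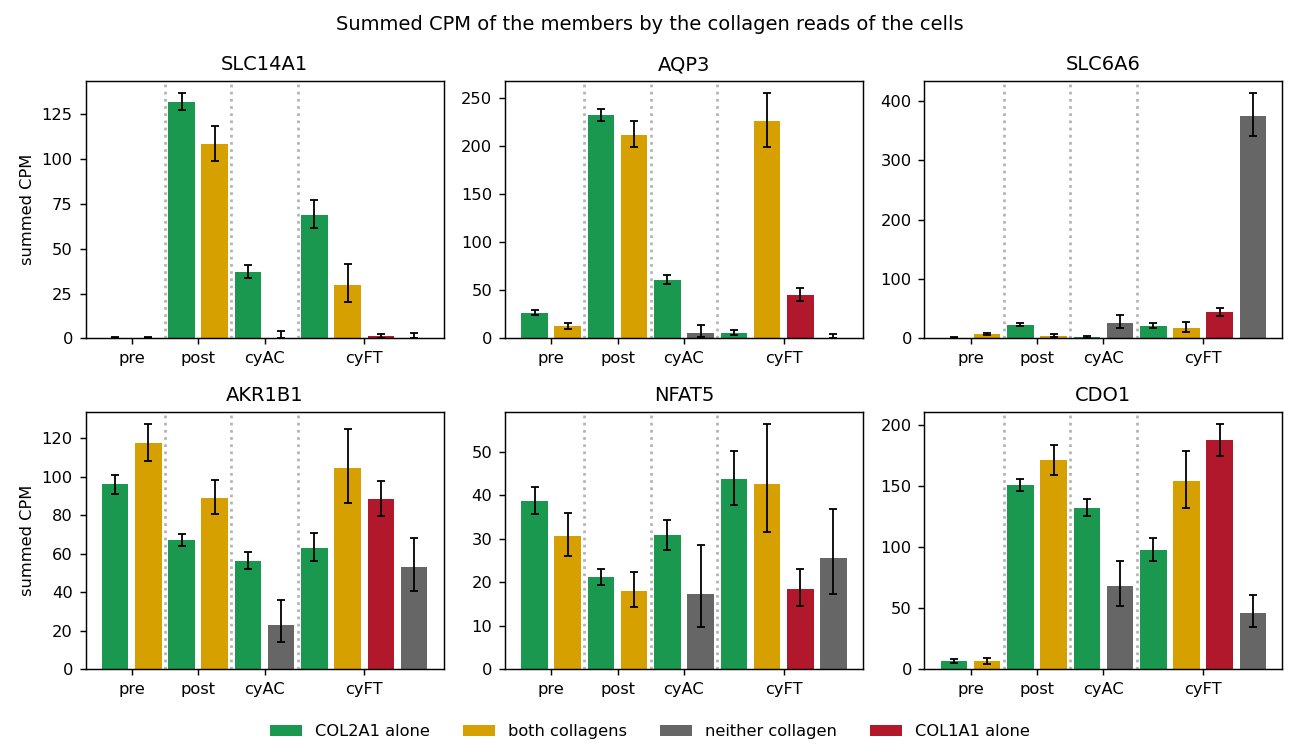
Summed CPM (linear axes from 0, scaled per gene) of the 6 genes in cells grouped by reads of COL2A1 and COL1A1, for groups of at least 20 cells, with exact Poisson 95% intervals. In cyFT, SLC14A1 was highest in cells with COL2A1 alone (69.0 CPM), AQP3 in cells with both collagens (225.5 CPM) and SLC6A6 in cells with neither (376 CPM).

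PRG4 is the gene for lubricin, whose protein the paper's staining placed near the joint surface in cyAC and post-transplant cyiPS-Cart. Cells were split here by whether they had any PRG4 read, and this split does not separate superficial from deeper cells. In cyAC, 311 of 320 cells had PRG4 reads, and in cyFT 32 of the 33 cells with neither collagen did. In post-transplant cells the SLC14A1 level was lower where PRG4 was read. In post-transplant cyiPS-Cart, the 227 cells with PRG4 reads had 120 CPM of SLC14A1 and the 93 cells without had 140.5, a ratio of 0.856 (0.795 to 0.922). Within cells with COL2A1 alone the ratio was 0.751 (0.695 to 0.813). The share of cells with a read went the other way, 55.1% with PRG4 and 48.4% without, or 40.5% and 35.5% at equal depth. The median depth was 84725 reads in the cells with PRG4 reads and 64430 in those without. In cyFT the 279 cells with PRG4 reads had 33.2 CPM of SLC14A1 and the 41 cells without had 3.0, on 2 reads (ratio 11.1, 3.04 to 91.8), with median depths of 30224 and 15648 reads. Of the 84 cyFT cells with COL2A1 alone, 83 had PRG4 reads, so no comparison within that class could be made. Of the 41 cells without PRG4 reads, 35 had COL1A1 alone, a class that held 135 cells with PRG4 reads. Within it SLC14A1 had 3 reads in cells with PRG4 and 2 in cells without (ratio 0.220, 0.0252 to 2.64), too few to show a difference. In thinned cells the Spearman correlation of SLC14A1 with PRG4 was −0.23 over 308 cyAC cells, −0.071 over 288 cyFT cells and −0.024 over 320 post-transplant cells, each of 1 sample.

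Erythrocytes are a known site of SLC14A1, and 3 of 10 erythroid markers are listed. All 3, ALAS2, AHSP and SLC4A1, had 0 reads in the pre-transplant, post-transplant, cyAC and cyFT cells of the second matrix. The 6 listed endothelial markers of 8 summed to 0.329 to 13.2 CPM over these samples, and 0.469 in post-transplant cells.

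AQP3 was also highest after transplantation, but its reads came from fewer cells. Its level was 2.11 CPM in cyiPSCs, 22.8 in pre-transplant cells, 223 in post-transplant cells, 55.3 in cyAC and 43.6 in cyFT, and no 2 neighbours in that order had overlapping intervals. The post-transplant level was 9.76 times the pre-transplant level (8.90 to 10.7, log2 3.23, the 38th highest of the 3420 genes) and 4.03 times that of cyAC (3.72 to 4.37). AQP3 came among the 3420 genes only through the post-transplant sample, so its rank is a description. Reads fell in 22.8% of pre-transplant, 39.4% of post-transplant, 22.8% of cyAC and 14.1% of cyFT cells, and thinned shares were 12.5%, 27.8%, 15.6% and 10.4%. In post-transplant cells the 10% of cells with most AQP3 reads held 80.4% of them, and the highest cell had 612 reads. For SLC14A1 the same share was 51.0%.

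By level, AQP3 in cyFT was higher in cells with COL1A1 alone than with COL2A1 alone, unlike SLC14A1. It was at 6.03 CPM in cells with COL2A1 alone and 45.3 in cells with COL1A1 alone, 7.51-fold more (5.01 to 11.7), on 27 reads in 15 cells and 196 reads in 21 cells. The shares of cells with a read did not separate these classes, 17.9% (10.4 to 27.7) with COL2A1 alone and 12.4% (7.81 to 18.3) with COL1A1 alone, or 5.95% and 11.8% at equal depth. The highest class was the 33 cells with both collagens, at 225.5 CPM, where 8 cells held 259 of the 483 cyFT reads. Among cells with COL2A1 alone, cyAC had 10.1 times the AQP3 level of cyFT (6.89 to 15.5), while the whole samples differed by 1.27-fold (1.13 to 1.43). In post-transplant cyiPS-Cart the AQP3 level was higher in cells with PRG4 reads than in those without, 242 against 158 CPM (ratio 1.54, 1.44 to 1.64), and within cells with COL2A1 alone the ratio was 1.55. At equal depth 30.8% (24.9 to 37.3) of cells with PRG4 and 20.4% (12.8 to 30.05) of those without had a read, overlapping intervals. The Spearman correlation of AQP3 with PRG4 in thinned post-transplant cells was 0.0080. In cyFT AQP3 was at 41.5 CPM with PRG4 reads and 74.99 without (ratio 0.554, 0.413 to 0.758), and within cells with COL1A1 alone at 38.9 and 88.4 CPM (ratio 0.440, 0.317 to 0.622). The values without PRG4 rest on 50 reads in 4 of 41 cells and 49 reads in 3 of 35 cells, and over all classes 14.7% of cells with PRG4 and 9.76% of those without had a read.

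CDO1, the gene for cysteine dioxygenase, separated the joint samples from the cultured ones. Its level was 12.9 CPM in cyiPSCs and 6.67 in pre-transplant cells, against 153 in post-transplant cells, 132 in cyAC and 133 in cyFT. The 3 joint samples lay within 1.16-fold of each other and cyAC and cyFT had overlapping intervals. The post-transplant level was 23.0 times the pre-transplant level (19.4 to 27.3, log2 4.33, the 11th highest of 3420), and cyAC stood 19.7-fold above pre-transplant cells (16.6 to 23.6). CDO1 came among these 3420 genes only through the post-transplant sample, so its rank is a description. CDO1 had reads in 13.8% of pre-transplant, 76.2% of post-transplant, 63.4% of cyAC and 58.1% of cyFT cells. At equal depth these shares were 5.33%, 55.6%, 48.4% and 47.9%.

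Unlike SLC14A1, CDO1 was found in every collagen class of cyFT. Its level was 97.8 CPM in cells with COL2A1 alone, 187 with COL1A1 alone, 154 with both and 46.1 with neither, so it was 1.91-fold higher (1.70 to 2.16) in cells with COL1A1 alone than in cells with COL2A1 alone. In pre-transplant cyiPS-Cart, where the gene was low, the 53 cells with PRG4 reads had 11.7 CPM and the 267 cells without had 5.49 (ratio 2.14, 1.47 to 3.06). The same ratio was 1.30 (1.21 to 1.41) in post-transplant cells. The lowest PRG4 count above 0 was 22 reads in pre-transplant cells and 1 in post-transplant cells, so the split is not the same in both. In cyFT CDO1 was at 130.5 CPM with PRG4 reads and 175.5 without (ratio 0.744, 0.615 to 0.906), while 59.9% and 46.3% of cells had a read, or 48.6% and 41.4% at equal depth. Within cyFT cells with COL1A1 alone the difference in CDO1 was within counting error, 185 and 200.2 CPM (ratio 0.925, 0.756 to 1.14).

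The genes SLC14A1, AQP3 and CDO1 were all higher after than before transplantation, yet few cells held reads of all 3. At equal depth, none of the 3 was read in 82.4% of pre-transplant, 17.5% of post-transplant, 35.4% of cyAC and 42.0% of cyFT cells. All 3 were read in 22 of 320 post-transplant cells, 2 of 308 cyAC cells, 3 of 288 cyFT cells and 0 of 319 pre-transplant cells. Across post-transplant cells the Spearman correlation of SLC14A1 was −0.044 with AQP3 and 0.0015 with CDO1, values near 0 in sparse counts.

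The taurine transporter gene SLC6A6 had another order, with the highest levels in cyFT and in cyiPSCs. It was at 60.7 CPM in cyiPSCs, 4.37 in pre-transplant cells, 22.2 in post-transplant cells, 7.44 in cyAC and 65.8 in cyFT. The intervals of cyFT and cyiPSCs overlapped; all other neighbours in the order were apart. Reads fell in 81.1% of cyiPSCs, and in 8.44%, 17.2%, 3.13% and 20.6% of pre-transplant, post-transplant, cyAC and cyFT cells.

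In cyFT, 55.2% of the SLC6A6 reads came from 16 cells that carried leukocyte markers. Macrophage and leukocyte markers, 7 of 8 listed, summed to 759 CPM in cyFT, against 29.0 in cyAC, 4.72 in post-transplant cells and 4.18 in pre-transplant cells. LYZ, the lysozyme gene, led them in cyFT with 270 CPM and reads in 5.63% of cells. LYZ was at 0 in pre-transplant and post-transplant cells, and PTPRC and CSF1R were at 0 in pre-transplant cells. The 16 cyFT cells with reads of at least 3 of these markers held 403 of the 730 SLC6A6 reads, at 510 CPM, and 15 of the 16 had a read. Of these 16 cells, 15 were among the 33 with neither collagen, and 0 had a read of SLC14A1, which by the same limit allows up to 18.8% of cells with a read. Without them SLC6A6 in cyFT was 31.8 CPM. The 238 cyFT cells with no read of any of the markers had 29.1 CPM (25.4 to 33.1), with reads in 15.5% of cells.

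**Figure D4:**
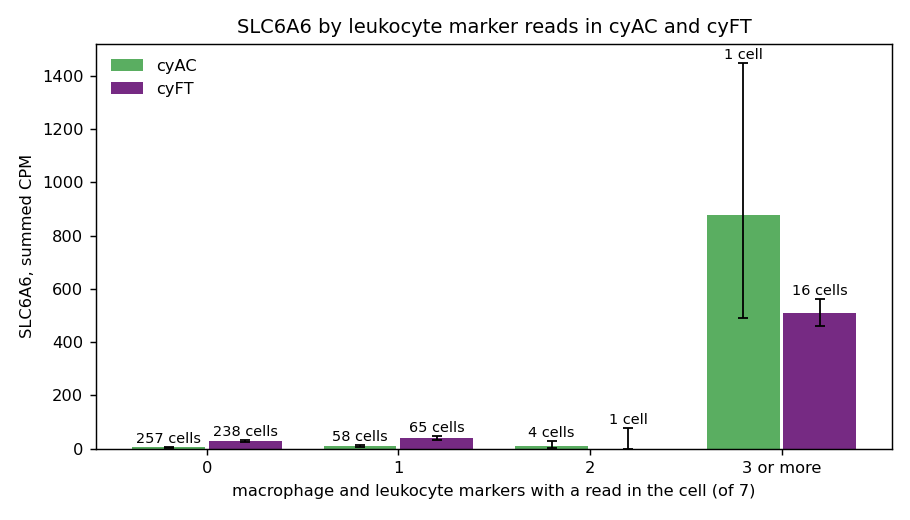
SLC6A6 in summed CPM (linear axis from 0) in cyAC and cyFT cells, grouped by how many of the 7 listed macrophage and leukocyte markers had a read in the cell, with exact Poisson 95% intervals and the number of cells over each bar. The 16 cyFT cells with 3 or more markers had 510 CPM and the 238 with none had 29.1; the bar for cyAC with 3 or more rests on 1 cell with 15 reads.

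The 8.85-fold excess of SLC6A6 in cyFT over cyAC (7.08 to 11.2) was smaller without these cells. The log2 ratio of cyAC over cyFT was −2.99 with all cells and −2.19 without those that had 3 or more leukocyte markers. The excess was also seen in cells with COL2A1 alone, 21.0 CPM in cyFT against 2.23 in cyAC, 9.41-fold (5.92 to 15.6). These 2 values rest on 94 reads in 9 cells and on 23 reads in 4 cells. In cells with COL1A1 alone, of which cyAC had 16 and cyFT 170, the log2 ratio was 0.78, in the other direction. The 16 cells are under the minimum of 20 set for a class. Among cells with COL2A1 alone post-transplant cyiPS-Cart was at 23.4 CPM, 22.2-fold above pre-transplant cells (13.5 to 39.0), which had 16 reads in 9 cells, and 10.5-fold above cyAC (6.92 to 16.7). Over whole samples these ratios were 5.09 (4.09 to 6.39) and 2.98 (2.39 to 3.77). In pre-transplant cells SLC6A6 was higher where both collagens were read, 7.0 CPM in 58 cells, than with COL2A1 alone, at 1.06.

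AKR1B1, the gene for aldose reductase, was highest in cyiPSCs and differed by less than 2-fold among the other 4 samples. Its level was 522.5 CPM in cyiPSCs, 106.5 in pre-transplant cells, 72.0 in post-transplant cells, 59.7 in cyAC and 76.3 in cyFT. It was 4.97-fold lower (4.90 to 5.03) in the 3527 pre-transplant cells than in cyiPSCs, and the last 4 samples lay within 1.78-fold (1.64 to 1.94). Post-transplant over pre-transplant gave a log2 ratio of −0.56, beside a median of −0.39 over all 3420 genes. Its lowest count above 0 was 5 reads in the library of cyiPSCs and pre-transplant cells and 1 in the others, so its shares of cells in the 2 kinds of library do not count the same thing. With at least 10 reads per cell required everywhere, the shares were 28.8% in pre-transplant, 24.7% in post-transplant, 9.06% in cyAC and 9.06% in cyFT cells. This minimum is harder to reach in the shallower cyAC and cyFT cells, and at equal depth the shares with any read were 43.9%, 30.0%, 23.4% and 28.8% in the same order.

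NFAT5 itself did not have its highest level in the post-transplant sample. It was at 9.98 CPM in cyiPSCs, 37.1 in pre-transplant cells, 20.2 in post-transplant cells, 30.3 in cyAC and 31.9 in cyFT. The intervals of pre-transplant cells and cyFT, and of cyFT and cyAC, overlapped. Post-transplant cells had 0.544 of the pre-transplant level (0.488 to 0.605), a log2 ratio of −0.85, and 0.667 of the cyAC level (0.584 to 0.763). Without the 1% of cells with most NFAT5 reads, the log2 ratio of post-transplant over pre-transplant cells was −1.08. At equal depth 24.8% of pre-transplant, 10.0% of post-transplant, 14.6% of cyAC and 16.7% of cyFT cells had a read. In cyFT it was 2.37-fold higher (1.82 to 3.11) with COL2A1 alone than with COL1A1 alone, the same side as SLC14A1.

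In post-transplant over pre-transplant cyiPS-Cart, past 2-fold, meaning a log2 ratio of at least 1 in size, 4 of 6 were higher (SLC14A1, CDO1, AQP3 and SLC6A6) and 0 lower. Of the 4 that passed the filter, 3 were higher. These 3 (SLC14A1, CDO1 and AQP3) passed only through the post-transplant sample, since under 25% of pre-transplant cells had a read of each. Of all 3420 genes that passed, 8.13% were past 2-fold higher and 22.1% lower, and SLC14A1 was chosen by this same contrast, so nothing is read from the member count. The median log2 ratio was −0.39 over all genes that passed. Over the 6 members, with SLC6A6 and NFAT5 that did not pass, it was 2.67, and nothing is read from it either. Higher genes were 26.9% of those past 2-fold by CPM and 44.5% with edgeR's TMM factors, which move the median of all genes to −0.12.

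**Figure D5:**
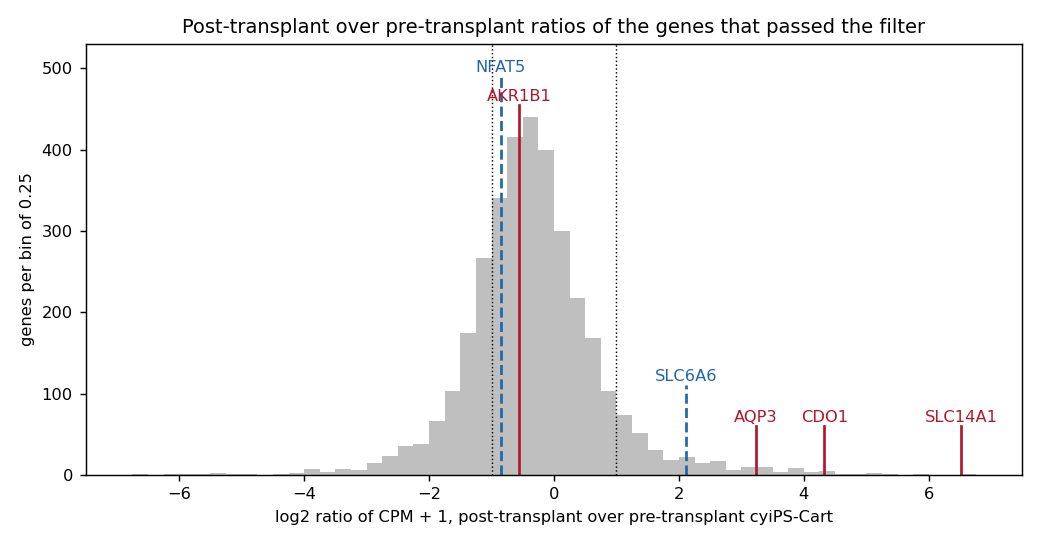
Log2 ratio of CPM plus 1, post-transplant over pre-transplant cyiPS-Cart, for the 3420 genes that passed the filter (grey, genes per bin of 0.25), with the 6 members as lines whose height carries no value. Solid red members passed the filter and dashed blue members did not, and dotted lines mark 2-fold. SLC14A1 lies at 6.52, at the right end, and AKR1B1 and NFAT5 lie to the left of 0.

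Post-transplant cyiPS-Cart over cyAC had 3 members higher (AQP3, SLC14A1 and SLC6A6, log2 1.99, 1.90 and 1.46) and 0 lower, beside 10.8% higher and 17.8% lower of the 3233 genes that passed the filter. SLC6A6 did not pass it and came within 2-fold with a pseudocount of 10 (0.88). SLC14A1 and AQP3 passed only through the post-transplant sample, since under 25% of cyAC cells had a read of either, so nothing is read from the member count. CDO1 (0.22), AKR1B1 (0.27) and NFAT5 (−0.56) were within 2-fold. Pre-transplant cyiPS-Cart over cyAC had 0 members higher and 3 lower (SLC14A1 −4.62, CDO1 −4.11 and AQP3 −1.24), beside 15.7% higher and 11.3% lower of the 3498 genes that passed the filter. Of these 3 members CDO1 alone passed it, and only through the cyAC sample, so nothing is read from the member count here either. AQP3 came within 2-fold with a pseudocount of 10 (−0.99) or without the 1% of cells with most of its reads (−0.87). Of genes past 2-fold there, 58.1% were higher by CPM and 48.0% with median-of-ratios size factors. These contrasts share the cyAC sample with each other, and each shares a sample with post-transplant over pre-transplant.

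Between cyAC and cyFT, read in 1 library, 0 members were past 2-fold higher and 1 lower, SLC6A6, beside 3.74% higher and 6.99% lower of 3260 genes. SLC6A6 did not pass the filter, since it had reads in under 25% of cells in both. Higher genes made up 34.9% of those past 2-fold by CPM, 53.4% with TMM factors and 56.5% with size factors. From cyiPSCs to the 3527 pre-transplant cells, also in 1 library, 2 members were higher (AQP3 2.88 and NFAT5 1.47) and 2 lower (SLC6A6 −3.37 and AKR1B1 −2.30), beside 18.4% higher and 38.5% lower of the 4684 genes that passed. AQP3 and NFAT5 did not pass the filter there, and SLC6A6 passed only through the cyiPSCs. NFAT5 came within 2-fold with a pseudocount of 10 (0.98). CDO1 (−0.58, or 0.03 with TMM factors) was within 2-fold. SLC14A1, near 1 CPM in both, was at −0.60 with the pseudocount of 1 and −1.07 with 0.1, and its CPM was 2.25-fold lower (1.90 to 2.67) in pre-transplant cells. The median of all genes in that contrast was −0.63 by CPM and 0.25 with TMM factors, and higher genes made up 32.3% and 64.7% of those past 2-fold.

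Lists of related genes, 8 lists with 84 genes in all, were read beside the members. Among other urea and water genes, 0 of 7 listed water and glycerol channels passed the filter from pre-transplant to post-transplant cells. Of genes of urea transport and formation, 0 of 4 passed it. Of all 14020 genes of the second matrix 3420 passed, so nothing is read from such small counts of passing genes in these lists. SLC14A2, the kidney urea transporter gene, was at 0 reads in all 4 samples of the second matrix. Of 8 listed genes of taurine and cysteine metabolism, 0 passed in that contrast. Among 11 of inositol, sorbitol and betaine handling only IMPA1, an inositol monophosphatase gene, passed, at 64.9 and 91.5 CPM (log2 0.49).

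Amino acid transporters used in osmotic adaptation were lower in post-transplant than in pre-transplant cells, or within 2-fold. All 5 passed, 0 were higher and 3 were lower past 2-fold, with a median log2 ratio of −1.13, beside 8.13% higher, 22.1% lower and a median of −0.39 over the 3420 genes. SLC1A5, a glutamine transporter gene, was at 247 CPM before and 40.5 after transplantation (log2 −2.58), SLC7A5, a large neutral amino acid transporter gene, at 614 and 187 (−1.71), and SLC38A1, another glutamine transporter gene, at 156 and 70.7 (−1.13, or −0.91 with TMM factors). In the list of cell volume and ion transport, 9 of 16 listed genes passed, 0 were higher and 4 lower, with a median of −0.80, to be read against the same shares and median over all genes. LRRC8C, for a subunit of the volume-regulated anion channel, was at 138 CPM before and 19.3 after (−2.77), and at 292 in cyAC and 153 in cyFT. ATP1B1, for a subunit of the sodium pump, was at 1163 and 288 CPM (−2.01), PIEZO2, for a mechanosensitive channel, at 198 and 54.0 (−1.85), and ATP1B3, for another pump subunit, at 155 and 66.7 (−1.20, or −0.98 with TMM factors). TRPV4, an osmosensitive channel gene, was within 2-fold at 116 and 101 CPM.

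Genes linked to NFAT5 were mixed, and the counts of this list and the next also stand beside 8.13% higher and 22.1% lower over all 3420 genes. Of 4 that passed from pre-transplant to post-transplant cells, S100A4 (67.0 and 375 CPM, log2 2.47) and BGN, the biglycan gene (4519 and 13144 CPM, 1.54), were higher, and HSPH1, a heat shock protein gene, was lower (200 and 66.8 CPM, −1.57). SGK1, a kinase gene induced by cell volume changes, was at 218.5 and 217 CPM. Of 4 stress kinase genes that passed, STK39 was higher (24.3 and 65.4 CPM, 1.39) and OXSR1 lower (72.7 and 33.8 CPM, −1.08, or −0.86 with TMM factors), both of them partners of the WNK kinases.

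In the joint tissues, cyFT was above cyAC in SLC38A2 and SLC3A2 among the amino acid transporters (log2 of cyAC over cyFT −1.04 and −1.07, or −0.86 and −0.89 with TMM factors) and in S100A4 (−2.67) and SGK1 (−1.48) among the genes linked to NFAT5. PIEZO2 was higher in cyAC, at 128 against 34.2 CPM (1.88). Post-transplant over cyAC, GCLM, for a subunit of the enzyme that commits cysteine to glutathione, was lower (18.0 against 81.8 CPM, −2.13), as were LRRC8C (−3.85), PIEZO2 (−1.23) and TRPV4 (−1.06, or −0.95 with TMM factors), while ATP1B1 (1.25), SGK1 (1.60) and S100A4 (1.88) were higher. HSPH1 (−1.21) among the genes linked to NFAT5, and SLC7A5 (−1.70) and SLC1A5 (−1.64) among the amino acid transporters, were also lower in post-transplant cells than in cyAC. From cyiPSCs to pre-transplant cells, TRPV4 went from 3.05 to 117.5 CPM (4.87), ATP1B1 from 153 to 1144 (2.89) and LRRC8C from 23.3 to 131 (2.44), and the inositol synthase gene ISYNA1 from 174 to 9.42 (−4.07), IMPA2 from 202 to 29.1 (−2.76) and CTH, of cysteine synthesis, from 61.8 to 11.4 (−2.34). Among the genes linked to NFAT5, BGN went from 8.27 to 4413 CPM (8.89), S100A4 from 7.09 to 61.7 (2.95) and SGK1 from 83.2 to 234, and among the amino acid transporters SLC38A2 went from 213 to 519 (1.28) and SLC3A2 from 309 to 136 (−1.18, or −0.52 with TMM factors). In the same contrast PIEZO2 went from 64.7 to 192 CPM (1.56). ARG2, of the urea list, went from 66.3 to 24.4 CPM (−1.41, or −0.75 with TMM factors). SLC44A1, of the inositol and betaine list, went from 108 to 41.5 CPM (−1.36, or −0.70 with TMM factors). In pre-transplant cells over cyAC, ATP1B1 (3.26), SGK1 (1.61), SLC38A2 (1.42) and OXSR1 (1.16) were higher and BGN (−1.57), LRRC8C (−1.08) and GCLM (−1.02) lower.

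The genes whose levels over the 4 samples of the second matrix were most like those of SLC14A1, by distance on centred log2 CPM plus 1 among 3975 genes, were DCN, CILP, ID2, MT1E and PER1, at distances of 1.45 to 1.64. DCN, for the small proteoglycan decorin, was at 193 CPM in pre-transplant cells, 6283 in post-transplant cells, 6515 in cyAC and 3890 in cyFT. CILP, for a protein of the cartilage intermediate layer, was at 25.7, 734, 691 and 347 CPM. With SLC14A1 itself counted as rank 1, CDO1 had rank 7, AQP3 rank 53, SLC6A6 rank 185 and AKR1B1 rank 2507. Across thinned post-transplant cells no gene followed SLC14A1 closely: the highest Spearman correlations among 2200 genes were 0.24 with CRISPLD1, 0.22 with DCN and 0.20 with each of MATN3, P3H2 and RGS2. In cyFT, where the collagen classes were mixed, the correlation of SLC14A1 was 0.42 with COL2A1 and −0.28 with COL1A1 over 288 cells of 1 sample.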

How the data were processed

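The 2 deposited matrices hold whole-number read counts per gene and cell. According to the methods, the authors mapped reads with Bowtie2 to Ensembl transcripts of the cynomolgus monkey, kept cells past the inflection of the knee plot, split samples by hashtags and set background counts of highly expressed genes to 0, and the second matrix was cut to 320 cells a sample. The submitters' processing notes name Bowtie2 2.4.2, cutadapt 3.4 and R 3.6.3. No collapse of reads to molecules is described.

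Here the deposited counts were summed per gene and sample and divided by the sample total (CPM) in Python 3.11.15 with scipy 1.17.1. Cells were assigned to conditions by the hashtag and library together in the cell name; the labels name the libraries, and which hashtag marks which sample within a library was taken from the order of names in the code the authors supply with the paper. A gene passed with at least 50 CPM and reads in at least 25% of cells in either sample, and 2-fold was set on log2 of CPM plus 1. Totals per sample ran from 11087496 reads (cyFT) to 415457877 (cyiPSC), so 3 reads, taken as the limit for a count of 0, equal 0.271 to 0.00722 CPM. Cells were thinned without replacement to the 10th percentile of depth of the shallowest sample of a matrix (30967 and 12191 reads). In the first matrix, thinning left out 60 cyiPSCs and 353 pre-transplant cells. The scripts were tested on simulated data.

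Members and lists were chosen with earlier results of these data known. Named were the members, at most 4 genes a list with the largest ratios past 2-fold among genes that passed, and 5 genes most like SLC14A1 by sample and 5 by post-transplant cell. Genes named outside this rule, chosen after their values were seen, were ADM, SLC14A2, IMPA1, TRPV4 and SGK1 where within 2-fold, LRRC8C in cyAC and cyFT, and the markers named at 0 or as highest. Doublets were marked with scrublet in scanpy 1.11.5: 14 of 6027 cells of the first matrix, too few to count as working, and 8, 2 and 2 post-transplant, cyAC and cyFT cells; all were kept. TMM factors came from edgeR 4.0.16 in R 4.3.3. The split of cyFT cells by PRG4 within cells with COL1A1 alone was chosen after seeing the data. No sequence of the members was used here.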

Additional observations from a re-analysis of the deposited data

How the results depend on the processing

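Each condition was 1 sample, so no result has a replicate error and all intervals cover counting only. No paired analysis was possible because each condition has 1 sample and no test was made. The 6 members' log2 ratios were recomputed under 15 alternatives, 2 of them chosen after seeing the data (without cells that had 3 leukocyte markers, and only cells with COL1A1 alone). Of 203 values of ratios past 2-fold, 202 kept their sign and 198 stayed past 2-fold. Of 205 within 2-fold, 7 went past it. SLC6A6 in cyAC over cyFT reversed, to 0.78, in cells with COL1A1 alone. SLC14A1 in post-transplant over pre-transplant cells ran from 3.70 with a pseudocount of 10 to 8.04 with 0.1. Of 108 shares of cells recomputed with thinning or other read minimums, 94 moved and 92 of these fell. Members past 2-fold changed to 1 lower (NFAT5) in post-transplant over pre-transplant cells by the mean of per-cell CPM, 1 higher in pre-transplant cells over cyiPSCs with a pseudocount of 10, 1 higher in cyAC over cyFT among cells with COL2A1 alone, 3 lower in pre-transplant cells over cyiPSCs with a pseudocount of 0.1 (SLC14A1 added), and, with a pseudocount of 10, 2 higher in post-transplant cells over cyAC and 2 lower in pre-transplant cells over cyAC. NFAT5 in post-transplant over pre-transplant cells was also past 2-fold lower, at −1.08, without the 1% of cells with most of its reads. In cells with COL1A1 alone, SLC14A1 (1.11), AKR1B1 (1.09) and NFAT5 (1.26) also went past 2-fold in cyAC over cyFT. That class had 16 cells in cyAC, under the minimum of 20 set for a class, so these values and the 0.78 of SLC6A6 rest on few cells. Of the 388 cyAC reads of SLC14A1, 383 lay in cells with COL2A1 alone, and cyFT had 5 in cells with COL1A1 alone.

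Counts of all genes past 2-fold moved more. In pre-transplant cells over cyiPSCs, 860 were higher and 1801 lower, against 1394 and 761 with TMM factors, 1455 and 712 with size factors, 1413 and 3210 with a filter of 10 CPM and 5% of cells, and 1753 and 4192 with no filter. In post-transplant over pre-transplant cells, 278 were higher and 756 lower; TMM factors gave 396 and 494, size factors 386 and 513, the looser filter 671 and 1400, and no filter 1082 and 1951. In cyAC over cyFT, 122 and 228 became 196 and 151 with size factors, 306 and 883 with the looser filter, and 690 and 1658 with none. In post-transplant cells over cyAC, 348 and 574 became 808 and 1192 with the looser filter, and 1247 and 1937 with none. In pre-transplant cells over cyAC, 549 and 396 became 1190 and 908, and 1729 and 1594. A looser filter admits more genes; the cause of the other changes was not tested. Of 52 list values past 2-fold by CPM, 52 kept their sign and 11 came within 2-fold with TMM or size factors.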
